A study of Homo sapiens with 8 samples.

Results

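Antisense long noncoding genes were examined in RNAseq of U251 cells, a human glioblastoma cell line. These genes carry names ending in -AS and 1 digit. The gene named before -AS is called the host gene here, and in most cases it lies on the opposite strand of the same locus. They were chosen by their mean level, at least 1 TPM (the length-scaled share of a library that a gene takes) over all 8 libraries, without regard to treatment. By this rule 298 of the 14478 genes with such a mean were taken, out of 61906 genes listed. They stand for 297 distinct names, since ASMTL-AS1 fills 2 rows with equal values. Each was compared between vehicle and LLY-283, and then set against its host gene where that gene was tested.

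Antisense transcripts are made from the DNA strand opposite to a known gene, often a protein-coding one. Some start beside the start of the host gene and run away from it, some lie within an intron of the host, and others run into the 3' end of the host. Most are spliced, carry a poly(A) tail and are kept at low levels, partly because nuclear decay enzymes such as the RNA exosome remove them. A few have known roles, acting on the host locus or on other RNAs.

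The 8 libraries comprised 4 labelled as biological replicates of U251 treated with vehicle (DMSO) and 4 of U251 treated with LLY-283 at 100 nM. Both groups were wild type, in the sense that no knockdown or engineered change is described for them, and were collected after 24 h. LLY-283 is a small molecule that inhibits PRMT5, the enzyme that places symmetric dimethyl marks on arginine. Libraries were made from poly(A) RNA, which leaves transcripts without a tail poorly measured.

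The TPM table keeps no depth, so no counting error can be given for low values, and TPM are shares of a library rather than amounts per cell. Between 24042 and 24757 genes were above 0 in a library, and replicates of one group correlated at 0.963 to 0.971. The glial and glioma markers GFAP, VIM, NES, SOX2 and CD44 were high in all libraries, with GFAP at 663 to 840 TPM, while the glial marker S100B was at 2.34 to 4.94 TPM. OLIG2, an oligodendrocyte lineage factor, was at 0.03 TPM or less, and markers of blood, epithelial, endothelial and neuronal cells were at 0.64 TPM or less. PRMT5 mRNA was 100.0 TPM on average with vehicle and 100.4 TPM with LLY-283. Whether reads were counted by strand is not stated, so that reads in sequence shared by an antisense gene and its host cannot be told apart.

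The DNA around the starts of 5 of these genes is shown to give the setting of the measurements. They comprise 3 of the largest decreases (EP300-AS1, SDCBP2-AS1 and MAP3K14-AS1), the 1 gene that rose (SLC25A25-AS1), and ZNF561-AS1 as an example of a start region shared with a host. Windows were chosen among those with at most 5 bases in exons of protein-coding genes, and ZNF561-AS1 was picked after its values were seen. Each window runs from 250 bases before the start annotated by RefSeq on GRCh38.p14 to 50 bases from the start on, and reads 5' to 3' on the strand of the antisense gene. In the first 4 windows the capitals mark the 50 bases from the annotated start on, and in that of ZNF561-AS1 they mark the bases that also lie in the window of ZNF561 on the opposite strand. The windows lie at chr22:41197452-41197751 (minus strand), chr20:1325093-1325392 (plus), chr17:45247675-45247974 (plus), chr9:128118685-128118984 (minus) and chr19:9621232-9621531 (plus).
EP300-AS1: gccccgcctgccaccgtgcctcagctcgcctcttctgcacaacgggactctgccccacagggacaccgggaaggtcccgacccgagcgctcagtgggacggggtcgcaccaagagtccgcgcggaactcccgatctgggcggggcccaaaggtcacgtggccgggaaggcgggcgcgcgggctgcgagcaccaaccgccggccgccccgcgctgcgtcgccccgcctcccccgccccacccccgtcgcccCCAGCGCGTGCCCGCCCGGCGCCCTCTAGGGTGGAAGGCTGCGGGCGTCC
SDCBP2-AS1: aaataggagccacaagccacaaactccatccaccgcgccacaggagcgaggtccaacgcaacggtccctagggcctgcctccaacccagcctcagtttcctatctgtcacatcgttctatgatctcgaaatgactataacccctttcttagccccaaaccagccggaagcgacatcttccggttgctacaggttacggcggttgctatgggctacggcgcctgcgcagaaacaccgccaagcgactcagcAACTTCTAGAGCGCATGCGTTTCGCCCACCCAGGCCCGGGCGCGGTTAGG
MAP3K14-AS1: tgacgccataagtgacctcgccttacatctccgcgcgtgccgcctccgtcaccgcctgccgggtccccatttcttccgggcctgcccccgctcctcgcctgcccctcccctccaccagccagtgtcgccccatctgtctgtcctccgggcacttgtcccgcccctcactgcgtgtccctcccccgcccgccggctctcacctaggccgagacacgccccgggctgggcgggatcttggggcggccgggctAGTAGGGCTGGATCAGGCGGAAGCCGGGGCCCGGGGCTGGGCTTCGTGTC
SLC25A25-AS1: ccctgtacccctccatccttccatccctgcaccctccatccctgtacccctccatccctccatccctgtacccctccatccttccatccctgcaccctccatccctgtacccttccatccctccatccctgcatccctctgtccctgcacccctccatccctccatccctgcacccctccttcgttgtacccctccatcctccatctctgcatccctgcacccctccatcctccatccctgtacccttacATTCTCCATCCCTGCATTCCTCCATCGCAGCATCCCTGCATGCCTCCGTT
ZNF561-AS1: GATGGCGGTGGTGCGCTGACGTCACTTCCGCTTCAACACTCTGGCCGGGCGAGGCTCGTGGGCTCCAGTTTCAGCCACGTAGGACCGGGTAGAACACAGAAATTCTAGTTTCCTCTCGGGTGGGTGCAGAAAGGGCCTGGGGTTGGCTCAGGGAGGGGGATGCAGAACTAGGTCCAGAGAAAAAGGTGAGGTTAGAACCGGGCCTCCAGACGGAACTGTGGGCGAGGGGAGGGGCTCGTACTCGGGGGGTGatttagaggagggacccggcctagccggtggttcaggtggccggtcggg

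The start of ZNF561-AS1 lay 250 bases from that of ZNF561, with the 2 genes pointing away from each other. RefSeq gave a window for 229 of the 297 names, and 204 had a window for the host as well. In 44 of these pairs the windows shared bases on opposite strands. Of the 44 antisense genes, 12 fell with LLY-283, and none of their 43 tested hosts was called, while 3.48% of all genes were called lower and 0.394% higher. Their median log2 fold change was -0.42, against -0.03 for those hosts, of which limma gave 8 lower and 7 higher at an unadjusted p-value under 0.05, beside 25.4% and 13.2% of all genes at that threshold. ZNF561-AS1 had 5.03, 6.88, 5.96 and 5.50 TPM with vehicle and 3.72, 3.13, 3.86 and 4.45 TPM with LLY-283. Its groups did not overlap (-0.61, adjusted p = 0.00753), but without vehicle replicate 2 or LLY-283 replicate 2 the change was under 1.5-fold (-0.53 in both cases), as it was with pseudocounts of 0.5 and 1, and with median-of-ratios scaling or quantile normalization.

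Sequence composition was described over the same windows by a search for 3 motifs on both strands. The letters GGGCGG, the core of an Sp1 site, were present in 60.7% of the 229 antisense windows and in 45.0% of all 35116 RefSeq windows. The letters TATAAA, the TATA box, were present in 4.80% and 11.5%, and CCAAT in 33.6% and 34.6%. Among the 60 windows of antisense genes that fell, GGGCGG was found in 68.3%, and among the 168 windows of genes that were not called in 58.3%. The median GC content was 66.7% and 63.5% in these sets and 58.7% over all windows. Of the windows printed above, those of EP300-AS1 and MAP3K14-AS1 hold GGGCGG, and none of the 5 holds TATAAA. A match of letters is a description and does not mark a bound site.

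LLY-283 lowered a large share of the antisense genes and raised 1. At an adjusted p-value under 0.05 (limma, two-sided) and a change above 1.5-fold, 83 of 298 rows fell (27.9%, or 82 names), beside 3.48% of all genes tested. SLC25A25-AS1 was called higher (0.336% of the antisense genes), beside 0.394% of all genes. The median log2 fold change on log2(TPM + 0.1) was -0.41 (interquartile range -0.68 to -0.18), beside -0.05 over all genes. The estimate was below 0 for 275 of them (92.3%) and above 0 for 23, beside 60.2% of all genes below 0. At 1 to 2 TPM and at 2 to 5 TPM, 69.8% and 70.6% of all genes were below 0. By adjusted p-value alone, 127 fell and 1 rose, beside 17.6% and 8.61% of all genes. In 133 antisense genes every LLY-283 library was under every vehicle library and in 1 every one was above, beside 19.6% and 9.63% of all genes. Under quantile normalization, which draws all libraries to 1 distribution, 50 antisense genes fell and 1 rose, and over all genes 260 fell and 126 rose instead of 504 and 57. In bulk RNA, less of a transcript in every cell cannot be told apart from its loss in some cells.

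The shift was seen in each library. Summed over the 297 names, the antisense genes took 2082, 2064, 2072 and 2076 TPM with vehicle and 1654, 1596, 1592 and 1513 TPM with LLY-283. The groups did not overlap, and the share of the library fell from 0.206% to 0.208% down to 0.151% to 0.165%. The median level was 3.40 to 3.59 TPM with vehicle and 2.31 to 2.63 TPM with LLY-283. In LLY-283 replicates 1, 3 and 4, 254, 257 and 267 of the 297 were under their own vehicle mean, and replicate 2 was close to these. In vehicle replicates 1 to 4 the counts were 158, 148, 133 and 130. The same count was not made over all genes.

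The rule on the mean let in 26 genes that reached 1 TPM only in the vehicle group and 3 that did so only in the LLY-283 group. Of the 26, 11 were called lower, and a gene that entered this way had to be lower with LLY-283. The other 269 reached 1 TPM in both groups, and of these 72 fell and 1 rose, with a median log2 fold change of -0.39, beside 3.48% and 0.394% of all genes and a median of -0.05. The 2 genes just above the threshold were SNX10-AS1 and RAB4A-AS1, with means of 1.03 and 1.04 TPM. The 2 just below it were CCDC144NL-AS1 at 0.988 TPM and DEPDC1-AS1 at 0.981 TPM. A further 780 -AS genes were above 0 but under a mean of 1 TPM, and 692 were at 0 in all libraries, of 1770 listed.

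**Figure D1:**
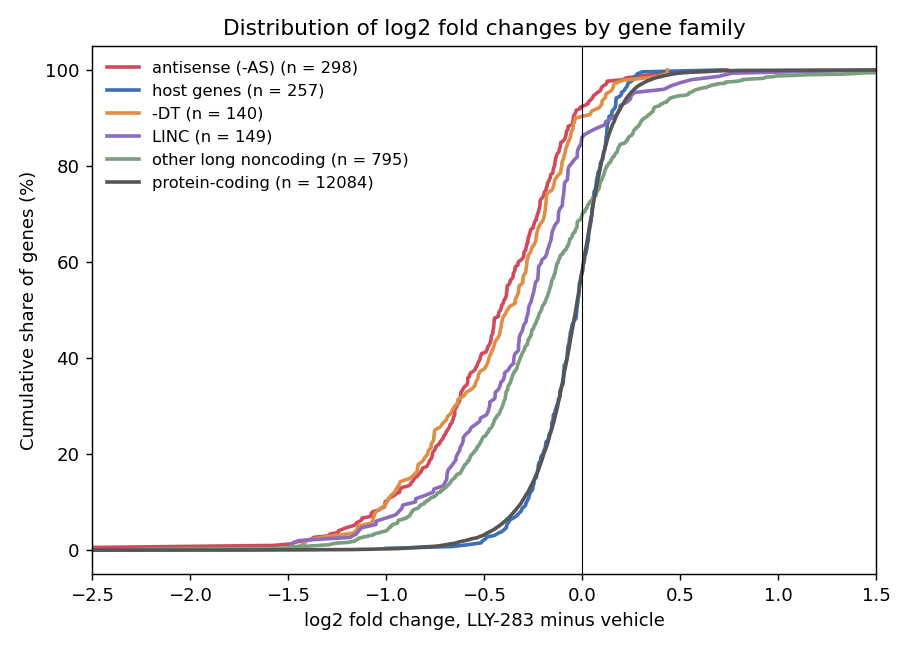
Cumulative share of genes (vertical axis, percent) against the log2 fold change of LLY-283 minus vehicle (horizontal axis) for the 298 antisense genes, their 257 tested host genes, the -DT, LINC and other long noncoding genes and the protein-coding genes. The antisense curve, with its median at -0.41, lies left of the host curve, with its median at -0.03, and few genes lie beyond the ends of the axis.

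The largest decreases were found in antisense genes of low to middle level. EP300-AS1 lies opposite the 3' end of EP300, which encodes a histone acetyltransferase (ENSG00000231993.2, chr22:41174591-41197508, minus strand, 3 exons). Its TPM were 3.24, 3.59, 2.43 and 4.00 in the vehicle libraries and 0.24, 1.53, 1.07 and 0.23 in the LLY-283 libraries. The groups did not overlap, and 2 of the LLY-283 libraries were lower than the other 2. The log2 fold change was -2.31 ± 0.51 (SE, adjusted p = 0.0101). EP300 itself was 25.6 TPM with vehicle and 26.4 TPM with LLY-283 (log2 fold change 0.05, adjusted p = 0.598). The 2 genes share no exon sequence. With a pseudocount of 1 the change of EP300-AS1 was -1.35. Of the called decreases described singly, EP300-AS1, ITFG2-AS1, MAP3K14-AS1, DCST1-AS1 and HSDL2-AS1 reached a mean of 1 TPM in the vehicle group only.

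SDCBP2-AS1 overlaps the start of SDCBP2, a syntenin scaffold gene (chr20:1325400-1378735, plus strand). Its level was 4.45, 3.30, 4.31 and 5.26 TPM with vehicle and 1.11, 1.52, 1.55 and 1.82 TPM with LLY-283 (log2 fold change -1.47, adjusted p = 0.000555). Here the antisense gene was the more abundant one, since SDCBP2 was at 1.09 and 1.25 TPM. MAP3K14-AS1 runs into the 3' end of MAP3K14, the NF-kappaB-inducing kinase (chr17:45247916-45269824, plus strand). Its level was 2.95, 1.95, 2.22 and 2.44 TPM with vehicle and 0.95, 0.96, 0.76 and 0.74 TPM with LLY-283 (log2 fold change -1.38, adjusted p = 0.000842). MAP3K14 went the other way, by 0.22 on the log2 scale (adjusted p = 0.0408), with means of 38.5 TPM and 45.0 TPM, overlapping groups and less than 1.5-fold.

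RUSC1-AS1 on chromosome 1 had 2.43, 3.01, 2.64 and 3.36 TPM with vehicle and 1.49, 1.00, 0.84 and 0.80 TPM with LLY-283 (log2 fold change -1.41). DCST1-AS1 on the same chromosome had 2.82, 1.82, 1.71 and 2.26 TPM with vehicle and 0.73, 0.72, 0.61 and 1.01 TPM with LLY-283 (-1.37). ITFG2-AS1, opposite a gene of the KICSTOR complex, had 2.42, 2.44, 2.88 and 1.68 TPM with vehicle and 0.59, 0.28, 1.10 and 1.27 TPM with LLY-283 (-1.57, adjusted p = 0.0162). None of these 3 had overlapping groups. With a pseudocount of 1, the changes of ITFG2-AS1, RUSC1-AS1, MAP3K14-AS1, DCST1-AS1 and HSDL2-AS1 were -0.91, -0.93, -0.87, -0.83 and -0.69. Without vehicle replicate 3, ITFG2-AS1 was not called (log2 fold change -1.47, adjusted p = 0.0522).

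Other large decreases lay opposite genes of several functions. PSMB8-AS1, beside an immunoproteasome subunit gene, had 3.45, 2.77, 3.27 and 3.09 TPM with vehicle and 1.22, 1.37, 1.01 and 1.33 TPM with LLY-283 (-1.29). FMNL1-AS1, inside a formin gene with which it shares 48.1% of its exon bases, had 3.95, 4.91, 4.92 and 5.10 TPM with vehicle and 2.13, 1.46, 2.89 and 1.51 TPM with LLY-283 (-1.25). The groups of both genes were separate. TNS2-AS1, opposite the focal adhesion gene TNS2, had 7.87, 8.36, 8.44 and 8.18 TPM with vehicle and 4.36, 4.56, 3.16 and 2.77 TPM with LLY-283 (-1.15). PPP3CB-AS1, opposite a calcineurin catalytic subunit, had 6.0, 3.15, 4.01 and 4.72 TPM with vehicle and 1.96, 1.79, 2.25 and 1.34 TPM with LLY-283 (-1.22). These did not overlap either, although the vehicle libraries of PPP3CB-AS1 were spread more widely. CCDC18-AS1 had 7.13 to 8.18 TPM with vehicle and 1.81 to 4.51 TPM with LLY-283 (-1.29), and ILRUN-AS1 had 4.75 to 6.78 TPM and 1.77 to 3.83 TPM (-1.20).

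CNPY2-AS1 and HSDL2-AS1 were called with overlapping groups. CNPY2-AS1 had 3.51, 3.50, 2.06 and 3.46 TPM with vehicle and 0.88, 2.51, 0.68 and 1.49 TPM with LLY-283 (log2 fold change -1.24, adjusted p = 0.0308). HSDL2-AS1 had 1.74, 1.45, 3.13 and 2.17 TPM with vehicle and 0.52, 0.86, 1.89 and 0.58 TPM with LLY-283 (-1.17, adjusted p = 0.0492). Both calls depended on single libraries and on the processing. That of CNPY2-AS1 was also lost without a filter, under quantile normalization and in limma without the trend, and that of HSDL2-AS1 in 15 of 21 alternatives, with both larger pseudocounts and other scalings among them. The call of CNPY2-AS1 was lost without vehicle replicate 1, 2 or 4 (log2 fold changes -1.18, -1.18 and -1.19, adjusted p = 0.0818, 0.0805 and 0.0814) and without LLY-283 replicate 1 or 3 (-1.10 and -0.99, adjusted p = 0.0798 and 0.0700). That of HSDL2-AS1 was lost without any 1 vehicle library (-1.25, -1.33, -0.98 and -1.15 without replicates 1 to 4) and without LLY-283 replicate 1, 2 or 4 (-0.97, -1.18 and -1.02), at adjusted p-values of 0.0577 to 0.131.

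**Figure D2:**
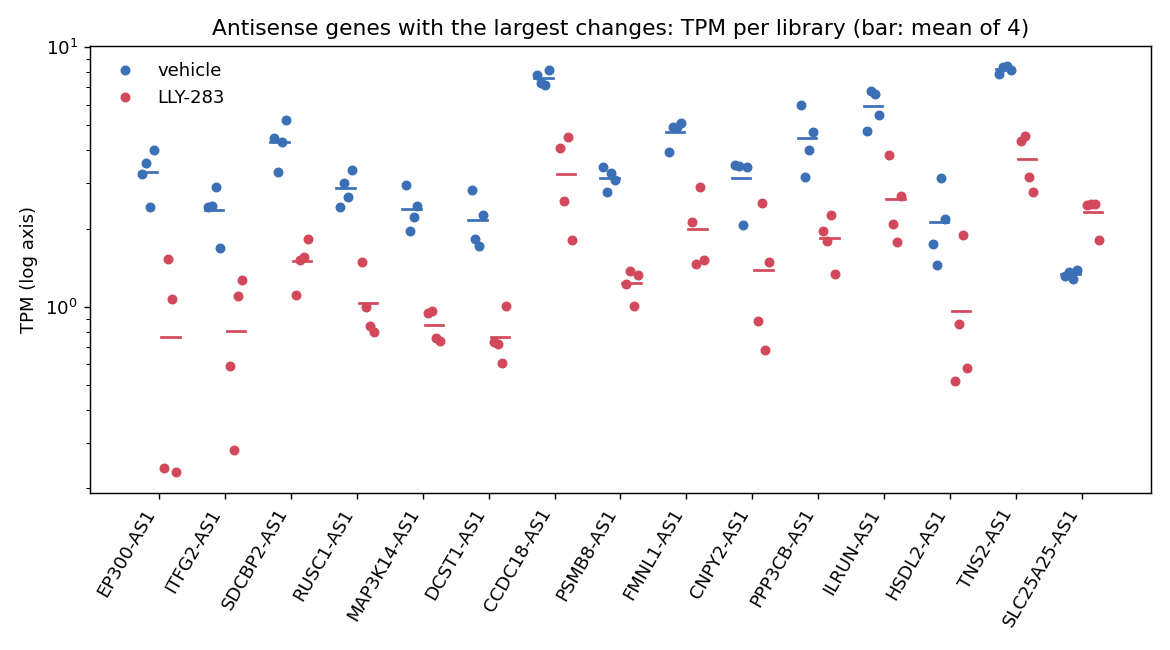
TPM per library (log axis) of 14 of the antisense genes with the largest decreases that were called and of SLC25A25-AS1, which rose, with vehicle in blue and LLY-283 in red and a bar at the mean of 4 libraries. The LLY-283 points lie under the vehicle points for 12 of the decreases, while CNPY2-AS1 and HSDL2-AS1 overlap.

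Of the 83 that fell, 29 did so by more than 2-fold (0.780% of all genes did), and 78 had groups that did not overlap (19.6% of all genes, called or not, were lower in this way). Their log2 fold changes ran from -2.31 to -0.59 with a median of -0.85, and their vehicle means from 1.58 to 34.2 TPM. They lay on 23 chromosomes, with 8 of the 38 antisense genes of chromosome 1 among them. The most abundant, named after its values were seen, was THUMPD3-AS1 on chromosome 3, with 34.71, 34.00, 32.62 and 35.56 TPM with vehicle and 20.62, 15.43, 19.65 and 13.82 TPM with LLY-283 (log2 fold change -0.99, adjusted p = 0.000433). Its vehicle libraries lay close together and its LLY-283 libraries were spread more widely, all below them. UST-AS2 had the lowest estimate of all 298 and was not called. It was at 6.60 and 6.85 TPM in vehicle replicates 1 and 2 and at 0 in the other 6 libraries (log2 fold change -3.05, adjusted p = 0.172). UST-AS2 thus reached a mean of 1 TPM in the vehicle group only.

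The 1 increase was SLC25A25-AS1, which runs into the 3' end of SLC25A25, a mitochondrial ATP-Mg/phosphate carrier gene (ENSG00000234771.3, chr9:128108581-128118693, minus strand). Its TPM were 1.31, 1.36, 1.28 and 1.38 with vehicle and 2.46, 2.49, 2.48 and 1.81 with LLY-283. All LLY-283 libraries were higher, with replicate 4 the lowest of them (log2 fold change 0.74 ± 0.15 SE, adjusted p = 0.00680). SLC25A25 averaged 18.3 TPM with vehicle and 16.8 TPM with LLY-283, with overlapping groups (-0.12, adjusted p = 0.0835). With a pseudocount of 1 the increase of SLC25A25-AS1 was not called.

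The 5 most abundant antisense genes changed less. MAP3K4-AS1, the highest, had 114.8, 119.4, 118.2 and 116.8 TPM with vehicle and 111.4, 107.0, 110.4 and 117.8 TPM with LLY-283 (log2 fold change -0.07, adjusted p = 0.148). OIP5-AS1, known as Cyrano, is a conserved cytoplasmic RNA that binds the microRNA miR-7. It had 63.35, 62.39, 71.29 and 61.75 TPM with vehicle and 54.17, 49.32, 48.72 and 45.61 TPM with LLY-283 (-0.39, adjusted p = 0.00193). Its groups did not overlap, but the change did not reach 1.5-fold. JAKMIP2-AS1 had 61.93 to 65.44 TPM with vehicle and 47.71 to 50.33 TPM with LLY-283 (-0.37, adjusted p = 9.47e-05), and FGD5-AS1 had 50.87 to 55.61 TPM and 41.64 to 45.68 TPM (-0.28, adjusted p = 0.00202). Both were separate between the groups and under 1.5-fold. THAP9-AS1 had 50.11 to 57.46 TPM with vehicle and 51.80 to 64.30 TPM with LLY-283, which overlapped (0.13, adjusted p = 0.204).

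Of a list of antisense genes known from work on cancer or gene control, some fell. GABPB1-AS1, whose host encodes a subunit of the transcription factor GABP, had 23.82, 23.03, 23.83 and 26.10 TPM with vehicle and 16.90, 15.48, 14.26 and 13.89 TPM with LLY-283 (-0.68, adjusted p = 0.000218). TMPO-AS1, beside the gene of a nuclear lamina protein, had 6.64, 7.35, 6.96 and 6.71 TPM with vehicle and 4.60, 3.98, 4.54 and 4.37 TPM with LLY-283 (-0.65, adjusted p = 0.000387). SLC16A1-AS1, beside the gene of the lactate transporter MCT1, had 5.10, 5.09, 5.21 and 6.13 TPM with vehicle and 3.66, 2.47, 3.79 and 2.72 TPM with LLY-283 (-0.77, adjusted p = 0.00495). In these 3 genes the groups did not overlap. TMPO-AS1 was short of 1.5-fold with a pseudocount of 1 and under quantile normalization (-0.51).

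MCM3AP-AS1, opposite the gene of an mRNA export factor, had 1.66, 1.82, 2.02 and 1.84 TPM with vehicle and 1.08, 1.2, 0.87 and 1.41 TPM with LLY-283 (-0.66, adjusted p = 0.0260). It was not called without vehicle replicate 2, 3 or 4 (-0.66, -0.61 and -0.65, adjusted p = 0.050, 0.0574 and 0.0555) or without LLY-283 replicate 1 or 3 (-0.64 and -0.55, the latter under 1.5-fold). The call was lost in 12 of 21 alternatives, among them pseudocounts of 0.5 and 1 (-0.41 with the latter), no filter and quantile normalization. A block for the replicate number was also among them (adjusted p = 0.0626).

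PCBP1-AS1 (-0.45, adjusted p = 0.0196) and ENTPD1-AS1 (-0.39, adjusted p = 0.00997) passed the adjusted p-value but not 1.5-fold. The first did not pass without vehicle replicate 1, 2 or 4 (adjusted p up to 0.0578), and the second did not under quantile normalization (-0.22, adjusted p = 0.0892). PCBP1-AS1 had 13.50 to 15.76 TPM with vehicle and 8.60 to 13.17 TPM with LLY-283, and ENTPD1-AS1 had 4.61 to 5.30 TPM and 3.54 to 4.03 TPM. DICER1-AS1 (-0.45, adjusted p = 0.101), FOXD3-AS1 (-0.40, 0.0619), ZEB1-AS1 (-0.33, 0.280) and PRKCQ-AS1 (-0.15, 0.431) did not pass. Their groups overlapped, as did those of HIF1A-AS1 (0.05, adjusted p = 0.862) and of LOXL1-AS1 (0.12, 0.0786), which reached 47.8 TPM with LLY-283. CDKN2B-AS1, KCNQ1-AS1 and MAPT-AS1 were at 0 in all libraries. HIF1A-AS3, HOXB-AS3, TTN-AS1, ST7-AS1 and PSMD6-AS2 were under a mean of 1 TPM.

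The host genes were seldom called, as were other genes of their level. A host was listed for 293 antisense genes and tested for 259, which had 257 distinct hosts. None of the hosts was called higher and 2 were called lower (0.778%), beside 3.48% of all genes, 1.76% of protein-coding genes and 0.587% of genes at 20 TPM and above. By adjusted p-value alone 45 hosts fell and 20 rose, beside 17.6% and 8.61% of all genes. At an unadjusted p-value under 0.05 limma gave 68 and 34, beside 25.4% and 13.2% of all genes. Their median log2 fold change was -0.03 and their median level was 24.6 TPM, against 3.00 TPM for the antisense genes. In 223 of 259 pairs the antisense gene was the less abundant one, at a median of 12.2% of the level of the host.

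The 2 hosts called lower were C1RL and OIP5, and the antisense genes of both were not called. C1RL encodes a serine protease related to complement C1r. It had 27.13, 24.49, 28.66 and 25.19 TPM with vehicle and 13.90, 16.70, 12.22 and 10.41 TPM with LLY-283 (-1.0, adjusted p = 0.000615). C1RL-AS1 had 3.67, 3.54, 5.10 and 3.20 TPM with vehicle and 3.49, 3.90, 3.29 and 2.52 TPM with LLY-283, with overlapping groups (-0.22, adjusted p = 0.373). OIP5, a factor that loads the centromeric histone CENP-A, had 42.49, 39.59, 38.15 and 42.62 TPM with vehicle and 26.63, 24.23, 26.55 and 25.25 TPM with LLY-283 (-0.66, adjusted p = 5.22e-05), and its groups were far apart.

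Of the 83 antisense genes that fell, 76 had a tested host, and no host among these was called. By adjusted p-value alone, 16 of these hosts fell, 5 rose and 55 passed in neither direction, beside the same 17.6% and 8.61%. At an unadjusted p-value under 0.05, limma gave 22 lower and 9 higher of the 74 distinct hosts, beside 25.4% and 13.2% of all genes. Opposite hosts with an estimate above 0, 32 of 109 antisense genes fell, and opposite hosts with an estimate below 0, 44 of 150, beside 3.48% of all genes. Across the 259 pairs the log2 fold changes of antisense gene and host had a Pearson correlation of 0.03 and a Spearman correlation of 0.05. These pairs share the 8 libraries, and the values are given as a description.

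**Figure D3:**
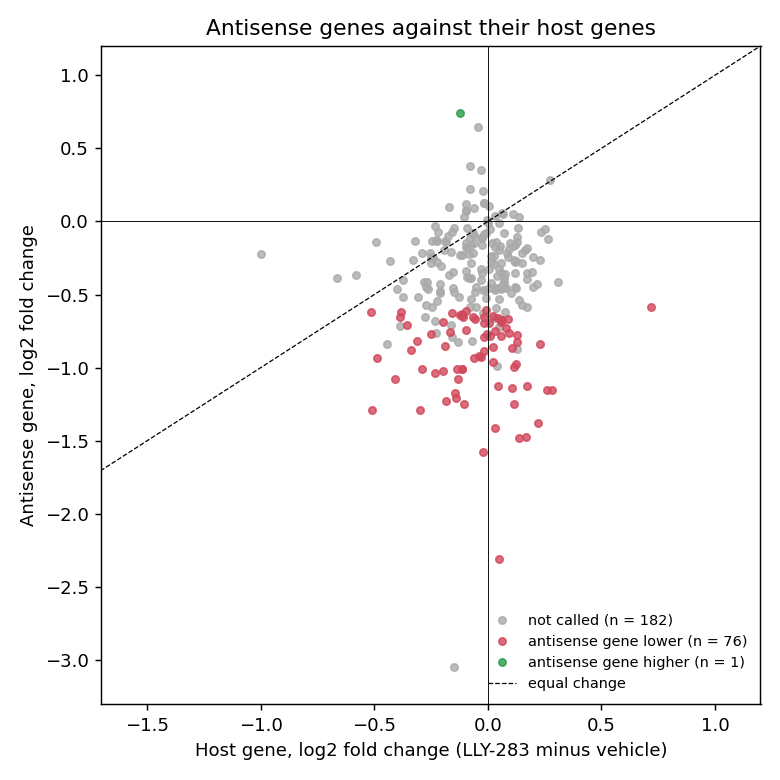
Log2 fold change of each antisense gene (vertical axis) against that of its host gene (horizontal axis) for the 259 pairs with a tested host, with the antisense genes that fell in red, SLC25A25-AS1 in green and a dashed line of equal change. The red points spread downward over hosts near 0, and the 2 hosts called lower, C1RL at -1.0 and OIP5 at -0.66, carry grey points.

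Host genes that rose by adjusted p-value while the antisense gene fell included NIFK, GTF3C2 and TMEM9B, named after their values were seen. NIFK-AS1 had 3.95, 4.72, 4.69 and 4.11 TPM with vehicle and 2.37, 1.84, 1.49 and 2.02 TPM with LLY-283 (-1.15, adjusted p = 0.000633). NIFK, which encodes a nucleolar protein that binds Ki-67, had 69.76, 69.51, 75.12 and 70.74 TPM with vehicle and 80.59, 95.85, 91.62 and 79.84 TPM with LLY-283 (0.28, adjusted p = 0.00916). In this pair both genes had separate groups, in opposite directions. GTF3C2-AS2 went from 9.32 to 5.21 TPM (-0.84) while GTF3C2, a subunit of the RNA polymerase III factor TFIIIC, went from 55.2 to 64.6 TPM (0.23, adjusted p = 0.00235). TMEM9B-AS1 went from 5.79 to 2.67 TPM (-1.12) while TMEM9B went from 36.5 to 41.1 TPM (0.17, adjusted p = 0.00948). All 3 hosts changed by less than 1.5-fold.

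DLGAP1 was the 1 host with 2 antisense genes of its own. DLGAP1-AS1 had 11.09, 10.83, 16.20 and 14.16 TPM with vehicle and 7.67, 6.65, 6.67 and 5.52 TPM with LLY-283 (-0.96, adjusted p = 0.00138). DLGAP1-AS2 had 13.33, 15.01, 13.59 and 13.44 TPM with vehicle and 7.10, 7.64, 8.03 and 7.57 TPM with LLY-283 (-0.86, adjusted p = 4.25e-05). Both fell with separate groups, inside a host that was 13.0 TPM with vehicle and 13.2 TPM with LLY-283. An abundant host gave a like picture. TPT1-AS1 had 6.43, 7.92, 8.42 and 9.36 TPM with vehicle and 5.18, 5.49, 4.63 and 4.28 TPM with LLY-283 (-0.70, adjusted p = 0.00329, but -0.56 and under 1.5-fold under quantile normalization), while TPT1, the translationally controlled tumor protein, was at 1635 and 1640 TPM.

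The change of each antisense gene relative to its host was tested as the log2 ratio of the 2 levels in each library. The fit took in 1332 pairs, 259 of them antisense genes with their named hosts (256 of the 257 hosts are protein-coding and ST20 is noncoding) and the rest other tested noncoding genes with a tested protein-coding gene. The ratio fell in 57 antisense pairs (22.0%) and rose in 2, beside 16.5% and 2.18% of all pairs fitted. Of the 76 antisense genes that fell and had a tested host, 53 also fell relative to the host. EP300-AS1 fell by 2.35 relative to EP300 (adjusted p = 0.0113, but 0.0623 without the filter on low values, and by 1.39 with a pseudocount of 1), SDCBP2-AS1 fell by 1.64 (0.00214) and MAP3K14-AS1 fell by 1.60 (0.00121). The estimate was at least as large against the host as for the antisense gene alone in these 3 pairs.

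For CCDC18-AS1 the ratio moved less than the gene, by -0.78 (adjusted p = 0.0273), since CCDC18 fell by 0.51 (adjusted p = 0.00392). That call was lost without vehicle replicate 1, 2 or 4 (-0.80, -0.78 and -0.72) or LLY-283 replicate 2 (-0.71), at adjusted p-values of 0.0569 to 0.0730, and also without the filter on low values (0.139). PSMB8-AS1 fell by 0.99 relative to PSMB8 (adjusted p = 0.00284), which itself fell by 0.30 (adjusted p = 0.000688). For ZNF561-AS1 the ratio changed by -0.52 (adjusted p = 0.107), so that it was not shown to move beyond its host.

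The ratio rose for SLC25A25-AS1 (0.86, adjusted p = 0.00334) and for C1RL-AS1 (0.78, adjusted p = 0.00430, but 0.0530 without the filter on low values), in the latter case with a host that fell. It fell without a call of the antisense gene for MRPL20-AS1, WDFY3-AS2 (-0.72), FLG-AS1 (-0.67) and BVES-AS1 (-0.65), named after their values were seen. The ratio call of WDFY3-AS2 was lost without vehicle replicate 1, 2 or 4 or LLY-283 replicate 1 or 3 (-0.73 to -0.59), and that of FLG-AS1 without vehicle replicate 2 or 4 or LLY-283 replicate 3 (-0.63 to -0.54). That of BVES-AS1 was lost without vehicle replicate 1, 3 or 4 or LLY-283 replicate 1, 3 or 4 (-0.67 to -0.52), and all 3 were lost without the filter on low values. MRPL20-AS1 had 23.03, 22.83, 21.61 and 22.82 TPM with vehicle and 15.20, 15.46, 14.66 and 14.80 TPM with LLY-283 (-0.58, adjusted p = 4.25e-05), just short of 1.5-fold. MRPL20, a mitochondrial ribosomal protein gene, went from 198 to 223 TPM, and the log2 ratio fell by 0.75 (adjusted p = 0.00214).

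The decrease was found in all the main positions relative to the host. Of 97 antisense genes that start on the opposite strand within 1000 bases of the start of the host, 28 fell (28.9%, median log2 fold change -0.41), beside 3.48% of all genes. This group holds pairs that point away from each other and pairs whose starts overlap by up to 1000 bases. Where the 2 starts overlapped by more than that, 15 of 58 fell (25.9%, median -0.31). Of 62 that overlap the 3' end of the host, 20 fell and 1 rose (median -0.47). Of 41 that lie inside the host, 11 fell (median -0.35), and of 28 that enclose the host, 7 fell (median -0.49). No call was made among 4 that did not overlap the host and 2 on its strand, and 2 of 6 that could not be placed fell. The differences between positions were not tested.

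**Figure D4:**
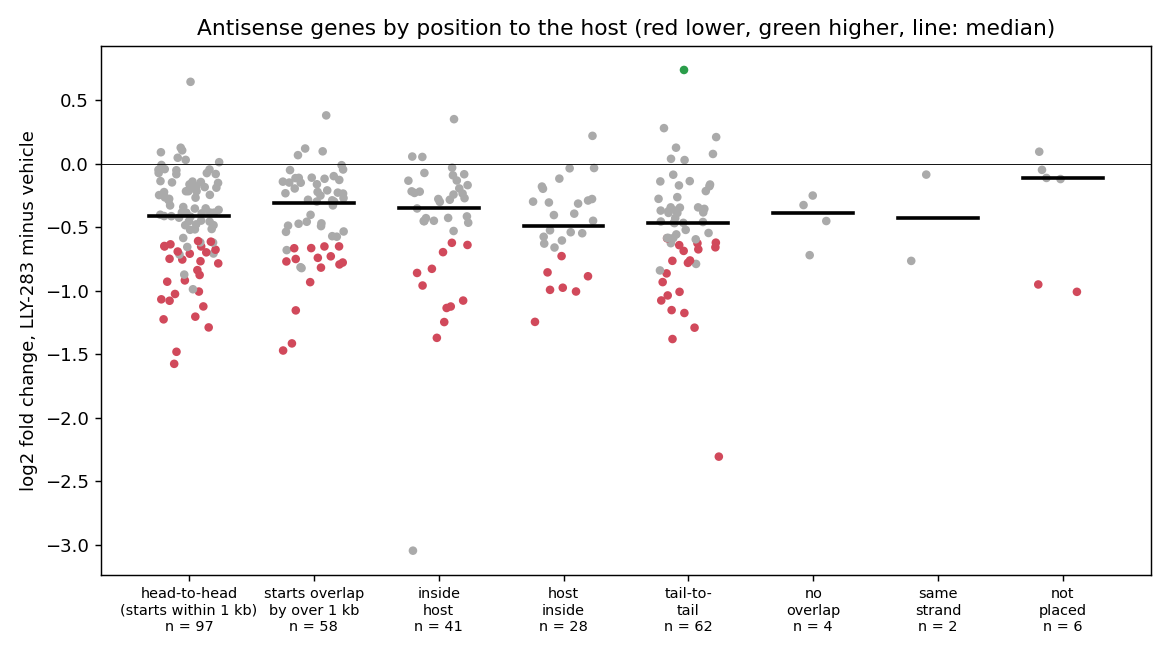
Log2 fold change of LLY-283 minus vehicle (vertical axis) for each of the 298 antisense genes, grouped by position relative to the host, with genes that fell in red, the gene that rose in green, genes not called in grey and a line at the median. The medians of the 5 main positions lie between -0.49 and -0.31, and the lowest point is UST-AS2 at -3.05.

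Sequence shared with the host was small for most antisense genes. A median of 6.55% of their exon bases lay in exons of the host, and for 14 of 290 placed genes it was the larger part. Of 61 that share no exon base with the host, 19 fell (31.1%, median -0.45), beside 3.48% of all genes, and of 229 that share some, 62 fell (27.1%, median -0.41). Of 48 with no exon base in any protein-coding exon, 15 fell (31.3%, median -0.45). The share that fell was 10 of 47 for genes of 1 exon, 45 of 164 for those of 2 or 3 exons and 27 of 86 for those of 4 or more. Genes that fell had a median transcript length of 2775 bases and those not called 2402 bases, with a median GC content of 49.0% and 50.1%.

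Zinc finger genes were the hosts of 16 antisense genes, a grouping made after the values were seen, and 7 of these fell (median -0.50), beside 27.9% of all the antisense genes and 3.48% of all genes. For 5 antisense genes no host was listed under the name before -AS. They comprised HOXA-AS2 (0.10), HOXC-AS3 (-0.05) and HOXD-AS2 (-0.12) of the homeobox clusters, KRTAP5-AS1 (-0.11), and TEMN3-AS1 (-0.95, adjusted p = 0.00391). The first 4 were not called, while TEMN3-AS1 fell from 2.88 to 1.43 TPM.

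The antisense genes were low, and low genes were called lower more often in general, so they were set beside genes of the same level. Between 1 and 2 TPM, 23 of 103 antisense genes fell (22.3%), against 9.01% of all genes and 5.83% of protein-coding genes at that level. Between 2 and 5 TPM, 33 of 108 fell (30.6%), against 8.44% and 4.73%. Between 5 and 20 TPM, 26 of 73 fell (35.6%), against 3.70% and 2.36%. At 20 TPM and above, 1 of 14 fell (THUMPD3-AS1), against 0.587% and 0.433%. As counted, the share among antisense genes was higher than the background of its level in each bin, with few genes in the last. The bins include the 26 antisense genes that reached 1 TPM in the vehicle group only, of which 11 fell. Such genes had to be lower with LLY-283, and their median level was 1.28 TPM. At least EP300-AS1 among them, with a mean of 2.04 TPM, lies in the bin of 2 to 5 TPM. The counts were not repeated without these genes, so no conclusion is drawn from the bins of 1 to 2 and 2 to 5 TPM.

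**Figure D5:**
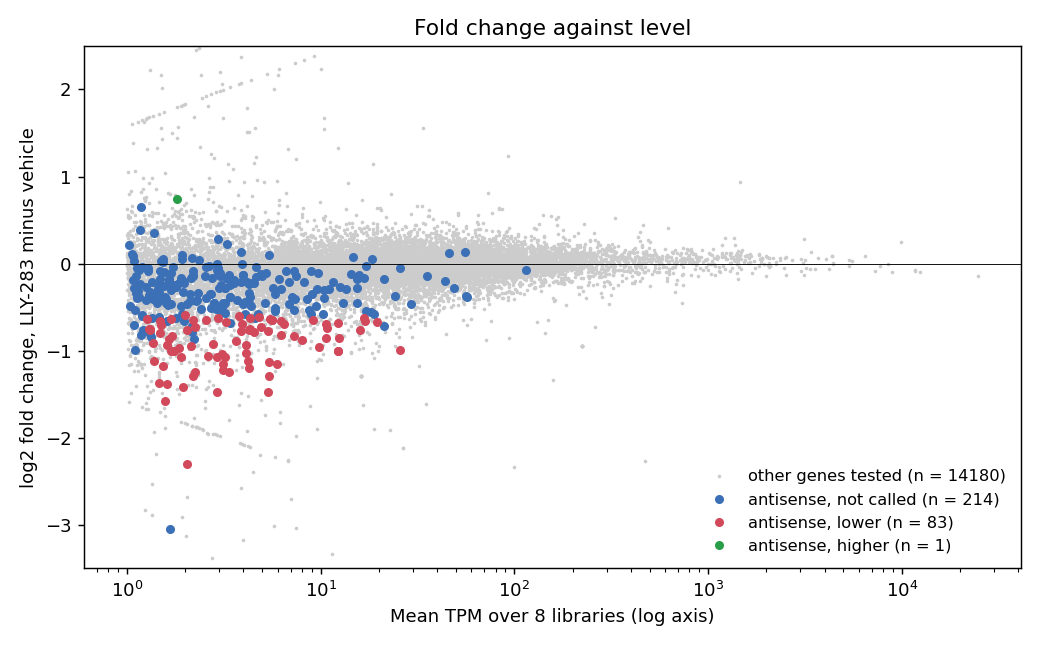
Log2 fold change of LLY-283 minus vehicle (vertical axis) against mean TPM over 8 libraries (horizontal log axis) for the 298 antisense genes in colour and the other genes tested in grey, of which 21 lie outside the vertical range. The 83 antisense genes that fell (red) lie mainly between 1 and 20 TPM, and the 14 antisense genes at 20 TPM and above have a median of -0.24.

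Other families of long noncoding genes moved in the same direction. Of 140 -DT genes, which start beside a host and run away from it, 38 fell (27.1%) and none rose, with a median log2 fold change of -0.38. Of 149 LINC genes, which lie between genes, 33 fell (22.1%) and 3 rose (median -0.27). Among 795 other long noncoding genes, 97 fell (12.2%) and 12 rose (median -0.21). Among 12084 protein-coding genes, 213 fell (1.76%) and 31 rose (median -0.03). The antisense genes thus stood next to the -DT genes, and the difference between the families was not tested.

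Genes of nuclear RNA surveillance, a list of 40 that holds the exosome, its adaptors, Integrator and cap-binding factors, were all tested and none was called by limma in either direction. By adjusted p-value alone 5 were lower and 6 higher, beside 17.6% and 8.61% of all genes, with a list median of 0.02. Taken with PRMT5 and 4 of its partners, 9 of 45 genes were lower and 12 higher at an unadjusted p-value under 0.05, beside 25.4% and 13.2% of all genes. EXOSC3, a cap subunit of the exosome, went from 75.1 to 64.5 TPM (-0.22, adjusted p = 0.00685), and EXOSC9, a ring subunit, from 43.4 to 55.1 TPM (0.35, adjusted p = 0.000316). NCBP3, which takes part in mRNA export, went from 43.2 to 35.9 TPM (-0.27, adjusted p = 0.00667), and the nuclear exonuclease gene XRN2 from 71.3 to 77.7 TPM (0.12, adjusted p = 0.0126). Their part in the levels of the antisense genes was not tested.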

How the data were processed

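RNAseq of U251 cells, 4 libraries with vehicle and 4 with LLY-283, was used. The authors trimmed reads, mapped them to GRCh38 and estimated expression for GENCODE release 41. The submitters' processing notes name Cutadapt 1.18, STAR 2.7.0f and RSEM 1.3.1, while the methods of the study name other versions of the last 2. Their deposited table holds 1 TPM value for each gene in each library. TPM removes depth and length but not library composition, and the strandedness of the counting is not given in the sources used here.

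From the TPM values, log2(TPM + 0.1) was compared for 14478 genes that averaged 1 TPM or more with limma 3.58.1 (lmFit, eBayes with a mean-variance trend, two-sided) in R 4.3.3, with Benjamini-Hochberg adjustment over all genes, as adjusted p-values in the text are. The log2 ratios were fitted alike over 1332 pairs, with the nearest tested protein-coding gene taken for noncoding genes without a named host. Genes were called at adjusted p-values under 0.05 where they also changed by more than 1.5-fold. The fits were also run on simulated data with normal noise and known changes. Such data do not carry the counting error of low values, and the outcome is not used here. Positions, exons and lengths came from GENCODE release 44, which matched 297 of the 298 antisense rows (293 of them lncRNA and 4 pseudogenes by biotype), and start windows from RefSeq.

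Genes named in the text are the 5 most abundant antisense genes, 14 of the 15 largest decreases and the increase among calls, the 2 on each side of the threshold, a list fixed by name, and their hosts, less a few not reported here, with others said to be named after their values were seen. The members and lists were chosen with earlier results of these data known. The alternatives were other pseudocounts, filters, scalings and thresholds, eBayes without the trend, a block for the replicate number, a correction for GC content and transcript length, and each library left out in turn.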

Additional observations from a re-analysis of the deposited data

Results flagged for a closer look

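Of 194 sets of 4 libraries, for the antisense genes named in the text and their hosts, and their summed level, 15 had 1 library far from the other 3, with a gap above the 95% critical value of Dixon for 4 values. Chance gives this in about 1 in 20 sets, and no explanation was tested. Among the antisense genes, OIP5-AS1 was at 71.29 TPM in vehicle replicate 3 against 61.75 to 63.35 TPM in the others, and FMNL1-AS1 was at 3.95 TPM in vehicle replicate 1 against 4.91 to 5.10 TPM. CNPY2-AS1 was at 2.06 TPM in vehicle replicate 3 against 3.46 to 3.51 TPM. SLC25A25-AS1, which rose, was at 1.81 TPM in LLY-283 replicate 4 against 2.46 to 2.49 TPM. SLC16A1-AS1 was at 6.13 TPM in vehicle replicate 4 against 5.09 to 5.21 TPM, DLGAP1-AS2 at 15.01 TPM in vehicle replicate 2 against 13.33 to 13.59 TPM, and MRPL20-AS1 at 21.61 TPM in vehicle replicate 3 against 22.82 to 23.03 TPM. BVES-AS1 was at 3.46 TPM in vehicle replicate 2 against 5.02 to 5.24 TPM, and HOXD-AS2 at 3.96 TPM in LLY-283 replicate 3 against 4.91 to 4.98 TPM. Among the hosts, vehicle replicate 4 stood apart for RUSC1 (55.82 TPM), GABPB1 (44.78 TPM) and THUMPD3 (42.91 TPM). THUMPD3 was also at 51.65 TPM in LLY-283 replicate 2, TMEM9B at 38.13 TPM in vehicle replicate 3 and UST at 9.23 TPM in vehicle replicate 2.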

How the results depend on the processing

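No called gene or pair among those named in the text changed sign under the alternatives, while 16 values that were not called did so in 1 or more of them (HIF1A-AS1 from 0.05 to -0.04 and PRKCQ-AS1 from -0.15 to 0.01, for example). The 83 decreases became 50 under quantile normalization (beside 1.80% of all genes), 27 of 87 genes at a mean of at least 5 TPM (1.84%), 57 with a pseudocount of 1 (2.16%), 127 by adjusted p-value alone (17.6%) and 29 at 2-fold (0.780%), and without a filter 90 of 1078 (8.35%, beside 1.80% of all genes), and the 1 increase became 0 with a pseudocount of 1, at a mean of at least 5 TPM and at 2-fold, and 3 without a filter. The 2 hosts called lower became 5 without a filter, 1 at a mean of at least 5 TPM, 45 by adjusted p-value alone and 0 at 2-fold, and the hosts called higher became 1 under quantile normalization and 20 by adjusted p-value alone. The 57 ratios that fell became 24 without a filter, 17 at a mean of at least 5 TPM and 18 at 2-fold, and the 2 that rose became 0 at a mean of at least 5 TPM and at 2-fold. The median log2 fold change was -0.30 with a pseudocount of 1, -0.23 without a filter and -0.25 under quantile normalization, which moved the median of all genes from -0.05 to 0.01. Of the 50 decreases under quantile normalization, all 50 were among the 83. When each library was left out in turn, 73 to 87 antisense genes fell and 1 rose, 2 to 4 hosts fell and 0 to 1 rose (4 and 1 without LLY-283 replicate 3), 44 to 62 ratios fell and 2 rose, and the median was -0.45 to -0.40. Libraries of the same replicate number did not deviate together (correlations of deviations -0.04, 0.03, -0.00157 and -0.09). Those of unlike numbers ran from -0.21 to 0.20. These values do not settle whether the libraries were paired. With a replicate block 81 antisense genes fell and 1 rose, and 46 ratios fell, and with the GC content and transcript length correction as well 80 genes and 39 ratios fell. Of the values of single genes and pairs under the alternatives, 2823 kept their side of the threshold (2775 of these with the same sign), 133 were no longer called and 52 became called. Without the filter on low values, the ratio calls of 13 named pairs were lost, and with the replicate block those of ITFG2-AS1 (adjusted p = 0.0518), SLC16A1-AS1 (0.0506), TPT1-AS1 (0.0606), CCDC18-AS1, MCM3AP-AS1 and BVES-AS1 were. The gene call of MCM3AP-AS1 was also lost with that block (adjusted p = 0.0626). The cause of these differences was not tested. TPM keep no depth, so the precision of low values is unknown.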
